A study of Mus musculus with 12 samples.

Results

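Collagens and laminins are the structural proteins of the extracellular matrix, and their genes were followed in 3 mouse small cell lung cancer lines in which the transcription factor gene Nfib was lowered or raised. The members were all features with 1 gene name whose symbol is that of a collagen alpha chain or of a laminin alpha, beta or gamma chain. This gave 55 genes of 23226 features with 1 gene name, of which 44 were collagen genes and 11 laminin genes. RNA-seq covered 12 samples in 6 groups of 2, all from tumor-derived lines that lack Trp53 and Rb1 (Trp53-/-;Rb1-/-) and grow as floating spheres in RPMI with 10% FBS. Those labelled Nfib high, 16T and KP1, carried shNfib (1 hairpin, sh2 in the titles) or shControl (shLuc). The line KP22, labelled Nfib low, carried Nfib cDNA or an empty vector. Each comparison rests on 1 line, and no label calls the 2 samples of a group separate cultures, so p-values measure only the spread between these samples, which may be technical. The question asked of each comparison is which of these transcripts changed when Nfib was lowered or raised.

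Collagen chains wind into triple helices, and the family divides by what the helices build: fibrils, networks, beaded filaments, anchoring fibrils, or molecules that coat fibrils. Laminins are heterotrimers of an alpha, a beta and a gamma chain that polymerise on cell surfaces, and together with the collagen IV network they form the basement membrane under epithelia and around vessels, muscle and nerve. In the lung, basement membranes separate epithelium from stroma, and fibrillar collagens are made mainly by fibroblasts.

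The authors' deposited table gives results of comparisons and 1 mean normalized count per gene over all libraries, with no value per sample, so the depth of the samples is unknown here and the groups' own values cannot be shown. Log2 fold changes are shNfib over shControl in 16T and KP1 and Nfib cDNA over empty vector in KP22, ± gives the SE of the authors' fit, and a gene is called, and said to have risen or fallen, where the adjusted p was below 0.05. The headings name no direction, which was read from Nfib: the authors' deposited table gave Nfib -1.08 ± 0.035 in 16T, -1.32 ± 0.035 in KP1 and 1.80 ± 0.036 in KP22. The fold changes look shrunken towards 0, as no SE exceeds 0.521, so percentages of a control level made from them are approximate. All 7 neuroendocrine markers were abundant, per the authors' deposited table, at mean normalized counts of 5290 to 45597. They were not stable: of 7 tested, 2 rose and 3 fell in 16T, against 20.0% and 25.3% of all genes. In KP1 4 rose and 3 fell, against 17.6% and 19.6%, and in KP22 2 rose and 4 fell, against 19.5% and 18.8%. Of the other markers examined, 4 of 8 of fibroblasts, 4 of 6 of endothelium and 1 of 5 of leukocytes reached a mean of 10.

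The cells transcribed a narrow set of matrix genes at high level. Of the 55 genes, 7 had a mean normalized count of at least 1000 in the authors' deposited table and 16 of at least 100, whereas 13 were below 10, and of these Col3a1, the fibrillar collagen of soft connective tissue, is listed at 0. Of the summed mean counts of all members, laminins held 47.4% and collagens 52.6%, and laminin alpha chains alone held 35.2%. Per kb of exon, Col8a1 was the highest at 1279, followed by Lama5 at 1106, Col4a1 at 465, Lamc1 at 422 and Col18a1 at 374, computed from the authors' deposited table. The classical fibroblast collagens were low in the authors' deposited table: Col1a1 had a mean normalized count of 21.6, Col1a2 of 2.02 and Col5a2 of 0.417. The plot of levels by family shows this spread, with 1 or a few abundant chains in most families and the remaining chains far below them.

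**Figure D1:**
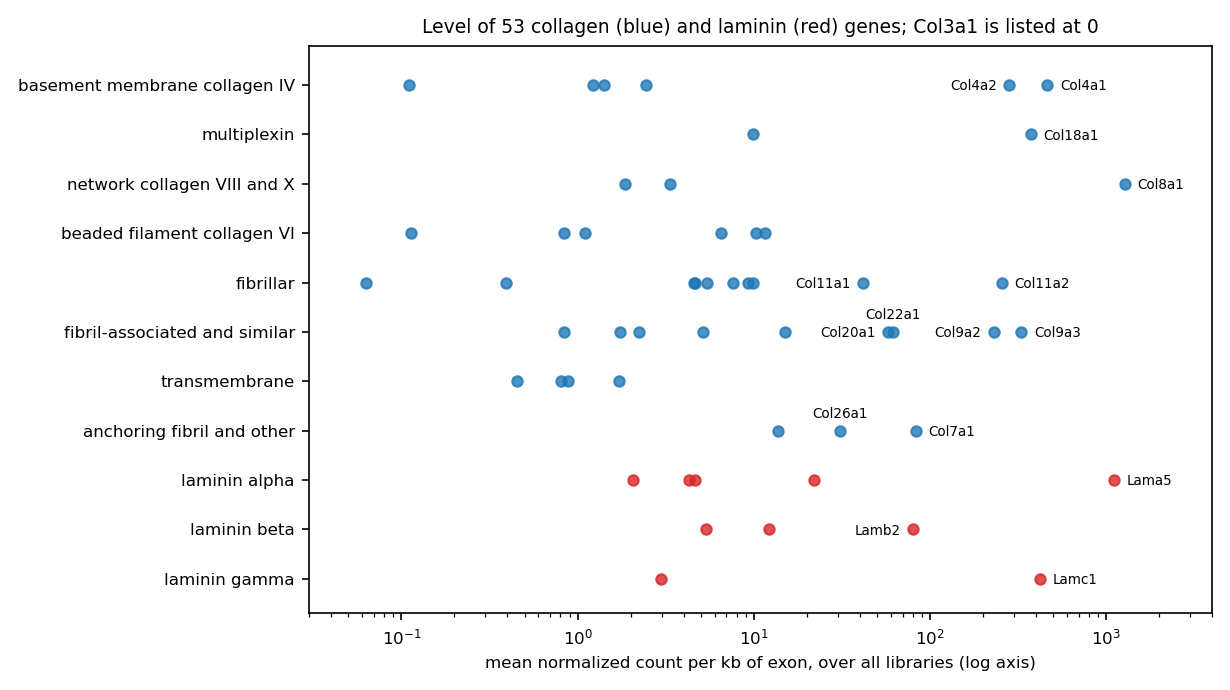
Mean normalized count per kb of exon over all libraries (log axis) for 53 collagen (blue) and laminin (red) genes, 1 point a gene, by structural family. Col8a1 and Lama5 are the only points above 1000, and the 4 transmembrane collagens all lie below 10.

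Low levels limit what the tests can see. In 16T and KP1 the lowest mean with an adjusted p was 15.7, and in KP22 it was 0.927, so 37 members were tested in 16T and in KP1 and 51 in KP22. The median mean normalized count of the tested members in the authors' deposited table was 78.8 in 16T and KP1, against 1326 over all genes tested there. Their median SE was 0.375 in 16T, against 0.0991 over all genes tested. The heat map shows calls in every family but the transmembrane collagens.

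**Figure D2:**
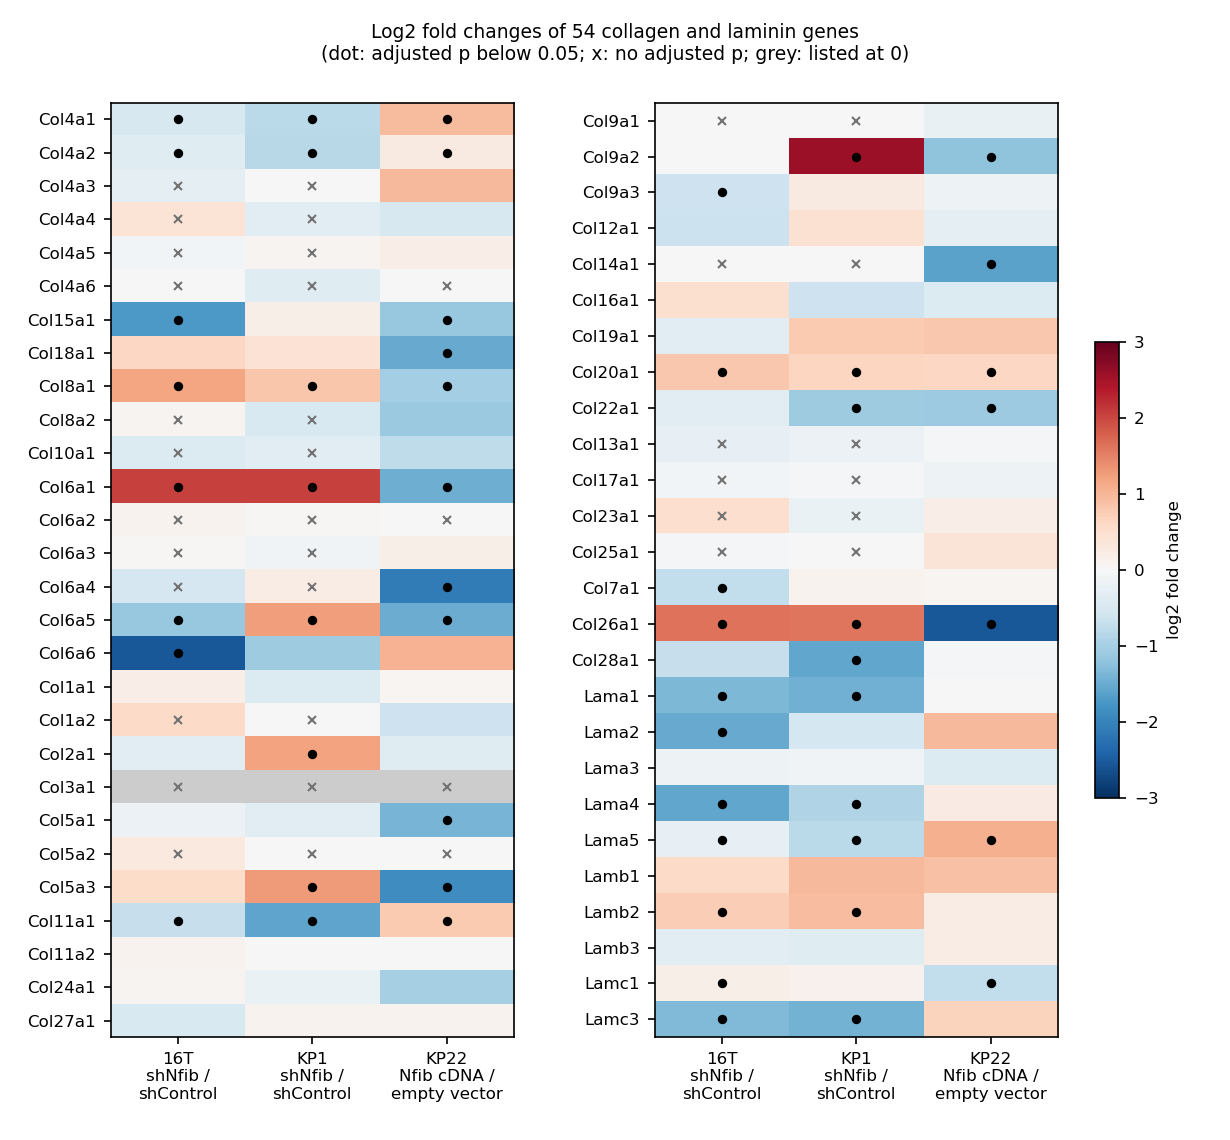
Log2 fold changes of 54 of the genes in 16T and KP1 (shNfib over shControl) and KP22 (Nfib cDNA over empty vector), red above 0 and blue below. Dots mark an adjusted p below 0.05 and crosses genes without an adjusted p. Col4a1, Col4a2, Col11a1 and Lama5 are blue, blue and red across the 3 lines, and Col8a1, Col6a1 and Col26a1 are red, red and blue.

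Counted over the module, 6 of 37 tested members rose and 13 fell in 16T with shNfib, against 20.0% and 25.3% of all genes tested. In KP1 10 rose and 9 fell of 37, against 17.6% and 19.6% of all genes. In KP22 with Nfib cDNA 5 rose and 14 fell of 51, against 19.5% and 18.8%. The members' median log2 fold change was -0.31 for 16T, 0.10 for KP1 and -0.15 for KP22, against -0.05, -0.02 and 0.04 over all genes tested, from the authors' deposited table. In the authors' deposited table, a stricter test asks whether a log2 fold change exceeds 0.5 in size. By this test 3 members rose (Col8a1, Col6a1 and Col26a1) and 3 fell (Col15a1, Col6a6 and Lama4) of 45 in 16T, against 3.46% and 1.80% of all genes. In KP1 that test gave 4 rises (Col8a1, Col6a1, Col9a2 and Col26a1) and 3 falls (Col4a1, Col4a2 and Lama5) of 45, against 2.40% and 2.18%. In KP22 it gave 2 rises (Col4a1 and Lama5) and 9 falls of 48, against 2.92% and 4.74%, and the falls included Col18a1, Col8a1, Col6a4, Col5a3, Col9a2, Col22a1, Col26a1 and Lamc1.

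Members called in all 3 lines in the direction of Nfib were Col4a1, Col4a2, Col11a1 and Lama5, 4 of the 37 tested throughout, against 5.33% of all genes. Those called in all 3 lines against Nfib were Col8a1, Col6a1 and Col26a1, 3 of 37, against 4.76% of all genes. When the normal reference was replaced by Student's t with 6 degrees of freedom, Col11a1 was no longer called in 16T, nor Col4a2 and Col6a1 in KP22, which leaves Col4a1 and Lama5 with Nfib and Col8a1 and Col26a1 against it. Under that setting 8 members fell in 16T, 6 rose in KP1 and 3 rose in KP22. The other calls lost were those of Col6a5, Lama1, Lama2, Lamc1 and Lamc3 in 16T, of Col2a1, Col5a3, Col6a5, Col20a1, Lama1, Lama4 and Lamc3 in KP1, and of Col5a1, Col14a1, Col15a1 and Col20a1 in KP22. In total 29 of the 51 members tested in at least 1 line were called there, against 60.5% of all genes tested in at least 1 line. Of the 55 members, 26 were called in none, including those tested in no line. Of the 37 tested throughout, 9 were called in all 3 lines in any combination of directions, against 15.1% of all genes. Of the 26 called in none, 14 had a mean of at least 10: Col1a1, Col4a3, Col4a5, Col6a3, Col10a1, Col11a2, Col12a1, Col16a1, Col19a1, Col24a1, Col27a1, Lama3, Lamb1 and Lamb3. Their log2 fold changes lay between -1.0 and 0.98 at mean normalized counts of 10.4 to 1440, per the authors' deposited table. Among these 14, Col4a3, Col4a5, Col6a3 and Col10a1 had no adjusted p in 16T or KP1.

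Collagen IV fell in both knockdown lines and rose with Nfib cDNA. Col4a1 and Col4a2 encode the chains of the collagen IV found in nearly all basement membranes. Col4a1 had a mean normalized count of 3076, and in the authors' deposited table it changed by -0.48 ± 0.080 in 16T (adjusted p = 2.29e-08), -0.80 ± 0.080 in KP1 (adjusted p = 7.71e-22) and 0.94 ± 0.077 in KP22 (adjusted p = 4.38e-33). This puts shNfib cells at 71.8% of the shControl level in 16T and at 57.5% in KP1, and Nfib cDNA cells at 1.92-fold the empty-vector level in KP22. Col4a2, at a mean normalized count of 1818, per the authors' deposited table, changed by -0.37 ± 0.081 in 16T (adjusted p = 2.95e-05), by -0.83 ± 0.081 in KP1 (adjusted p = 7.00e-23) and by 0.27 ± 0.078 in KP22 (adjusted p = 0.00276). Both genes therefore changed in the direction of Nfib in every line, and the rise in KP22 was larger for Col4a1 (1.92-fold) than for Col4a2 (1.20-fold). RNA was taken from whole cultures, in which fewer cells of a type and less RNA per cell cannot be told apart. The other collagen IV chains, which form the networks of kidney, lung alveolus and smooth muscle, were low in the authors' deposited table: Col4a3 at 12.2, Col4a4 at 9.56, Col4a5 at 15 and Col4a6 at 0.735. None of these chains was called, and none had an adjusted p in 16T or KP1.

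Col4a1 and Col4a2 lie head to head on chromosome 8 of mm10 (Col4a1 on the minus strand at 11198423 to 11312826, Col4a2 on the plus strand at 11312829 to 11449287). Their own exons are 2 bases apart in the authors' deposited interval list. The counting is not stated to use strand. Their promoters are shown because the pair moved together in every line, and those of Lama5 and Col8a1 because they are the most abundant members that moved with and against Nfib. The RefSeq windows (GRCm38.p6, 250 bases before to 50 after a start site) are chr8:11312777-11313076 on the minus strand for Col4a1, chr8:11312555-11312854 on the plus strand for Col4a2, chr2:180225810-180226109 on the minus strand for Lama5 and chr16:57754688-57754987 on the minus strand for Col8a1, each printed 5′ to 3′ along its gene. Capitals mark the core motif of the nuclear factor I family, to which Nfib belongs: TTGGC or its reverse complement GCCAA.
Col4a1: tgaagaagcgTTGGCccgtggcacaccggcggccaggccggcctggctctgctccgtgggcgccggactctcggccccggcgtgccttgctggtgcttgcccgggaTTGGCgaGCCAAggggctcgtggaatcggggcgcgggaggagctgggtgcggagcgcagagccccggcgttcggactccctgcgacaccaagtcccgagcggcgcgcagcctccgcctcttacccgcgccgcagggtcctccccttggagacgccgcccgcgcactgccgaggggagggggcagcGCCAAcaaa
Col4a2: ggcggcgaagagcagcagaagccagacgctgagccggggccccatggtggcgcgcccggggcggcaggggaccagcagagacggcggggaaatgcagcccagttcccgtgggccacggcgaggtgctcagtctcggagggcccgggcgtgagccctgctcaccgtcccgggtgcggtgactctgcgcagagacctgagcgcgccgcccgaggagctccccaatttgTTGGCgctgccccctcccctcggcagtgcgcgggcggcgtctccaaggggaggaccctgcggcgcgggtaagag
Lama5: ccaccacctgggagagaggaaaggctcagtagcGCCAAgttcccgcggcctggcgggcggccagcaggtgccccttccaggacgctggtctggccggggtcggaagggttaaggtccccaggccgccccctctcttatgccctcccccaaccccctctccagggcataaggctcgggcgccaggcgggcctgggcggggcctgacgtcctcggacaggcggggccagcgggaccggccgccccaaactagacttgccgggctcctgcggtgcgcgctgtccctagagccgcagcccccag
Col8a1: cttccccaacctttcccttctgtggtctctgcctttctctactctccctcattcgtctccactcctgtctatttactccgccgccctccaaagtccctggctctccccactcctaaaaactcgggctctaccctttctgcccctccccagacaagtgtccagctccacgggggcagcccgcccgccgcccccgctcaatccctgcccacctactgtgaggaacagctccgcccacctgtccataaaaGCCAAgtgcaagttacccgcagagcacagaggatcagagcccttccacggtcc

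The Col4a1 window holds 4 core motifs, at -240, -144, -137 and 42 bases from its start site, and that at -144 overlaps a CCAAT box. The windows of Col4a2, Lama5 and Col8a1 hold 1 each, at -24, -217 and -3. The start sites of Col4a1 and Col4a2 are 21 bases apart in RefSeq, each inside the other gene, so their 5′ ends overlap there. The RefSeq start of Col4a2, 11312805, differs from that in the authors' interval list, 11312829, by which the exons of these genes do not overlap. Their windows share 78 bases. The motif at 42 from the Col4a1 start and that at -24 from the Col4a2 start are the same 5 bases, and both windows are counted below. A core motif on either strand is common, being present in 46.7% of 32851 promoter windows of all genes and in 21 of 44 windows of the members (47.7%). Grouped by the mean effect of the 3 lines in the direction of higher Nfib, 5 of 8 windows of members called as higher held one, 2 of 8 of members called as lower, and 9 of 14 of members not called. The full palindrome, which is TTGGC and GCCAA with 5 bases of any kind between them, was in 12 windows of all genes (0.0365%) and in 0 of the members' windows. A match describes the letters only, and binding was not measured here.

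Collagens XV and XVIII, the multiplexins, sit at the outer face of basement membranes and carry C-terminal fragments that are known to restrain vessel growth. Col18a1, the source of endostatin, had a mean normalized count of 2166 and fell in KP22 (-1.52 ± 0.22, per the authors' deposited table, adjusted p = 6.98e-11). Its values there were 0.62 ± 0.27 in 16T and 0.44 ± 0.26 in KP1, without a call (adjusted p = 0.0516 and 0.199). The rise in 16T was called when the values were recentred on the median gene (adjusted p = 0.0306) or adjusted over genes with a mean of at least 10 (0.0485) or 100 (0.0420). Col15a1, at a mean of 52.9, fell in 16T (-1.73 ± 0.37) and in KP22 (-1.13 ± 0.43) and had 0.17 ± 0.41 in KP1, per the authors' deposited table. Its falls in 16T and KP22 run in opposite directions with respect to Nfib.

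Collagen VIII changed against Nfib in all 3 lines. Col8a1 encodes a short chain that forms hexagonal lattices, known from the cornea and the vessel wall. At a mean normalized count of 6538, per the authors' deposited table, it changed by 1.18 ± 0.048 in 16T (adjusted p = 1.30e-131), 0.84 ± 0.047 in KP1 (adjusted p = 1.19e-70) and -1.03 ± 0.051 in KP22 (adjusted p = 9.59e-90). It was at 226% of the shControl level in 16T with shNfib, at 179% in KP1 with shNfib, and at 48.9% of the empty-vector level in KP22 with Nfib cDNA. In the authors' deposited table Col8a1 also passed the test against 0.5 in all 3 lines. Its partner Col8a2 and the cartilage collagen Col10a1, of the same family, had means of 8.02 and 10.4 in the authors' deposited table. They were not called in KP22 and had no adjusted p in 16T or KP1.

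Collagen VI forms beaded filaments around cells, and its alpha-1 chain enters every known collagen VI molecule. Col6a1 rose with shNfib by 2.04 ± 0.47 in 16T (adjusted p = 7.40e-05) and by 2.05 ± 0.45 in KP1 (adjusted p = 4.41e-05), and fell by 1.47 ± 0.49 in KP22 with Nfib cDNA (adjusted p = 0.00959), per the authors' deposited table. These are large changes of a scarce transcript, whose mean normalized count was 46.4. Its obligatory partner Col6a2, a neighbor on chromosome 10 at a gap of 85.4 kb, had a mean of 0.420, per the authors' deposited table, and Col6a3 had 12. Col6a5 and Col6a6 are alternative chains that lie 28.0 kb apart on chromosome 9. Col6a5 (mean 95.5) fell in 16T (-1.14 ± 0.48), rose in KP1 (1.26 ± 0.39) and fell in KP22 (-1.50 ± 0.40), per the authors' deposited table; recentred on the median gene, its call in 16T was lost (adjusted p = 0.0522). Col6a6 (mean 44.2) fell in 16T (-2.54 ± 0.43), the largest fall of any member in that line, and had -1.06 ± 0.45 in KP1 and 1.04 ± 0.52 in KP22, per the authors' deposited table, where the adjusted p was 0.055 and 0.110. The neighbors Col6a5 and Col6a6 thus shared a direction in 16T and had opposite signs in KP1 and KP22. Col6a4, a further alternative chain at a mean of 6.25, fell in KP22 by 2.11 ± 0.45 in the authors' deposited table and had no adjusted p in the other lines.

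Among the fibrillar collagens, Col11a1 followed Nfib. It encodes a chain of collagen XI, which nucleates cartilage fibrils. At a mean normalized count of 303 it changed by -0.69 ± 0.21 in 16T (adjusted p = 0.00381), by -1.59 ± 0.41 in KP1 (adjusted p = 0.000582) and by 0.80 ± 0.23 in KP22 (adjusted p = 0.00188), per the authors' deposited table. Col11a2, another chain of the same trimer, was more abundant (mean 1440) and close to 0 in each line of the authors' deposited table, at 0.10 ± 0.094 in 16T, -0.02 ± 0.099 in KP1 and -0.01 ± 0.093 in KP22. Col5a3 and Col5a1 encode chains of collagen V, which sets fibril diameter. Col5a3 (mean 46.5) rose in KP1 (1.29 ± 0.47), fell in KP22 (-1.86 ± 0.46) and had 0.55 ± 0.47 in 16T, where it was not called, per the authors' deposited table. Col5a1 (mean 78.4) fell in KP22 (-1.40 ± 0.51), and was not called in 16T (-0.17 ± 0.51) or KP1 (-0.33 ± 0.51), per the authors' deposited table. Col2a1, the main fibrillar collagen of cartilage (mean 51.1), rose in KP1 (1.20 ± 0.40) and had -0.33 ± 0.39 in 16T and -0.36 ± 0.45 in KP22, per the authors' deposited table. Col1a1 was not called, with 0.21 ± 0.50, -0.41 ± 0.49 and 0.06 ± 0.50 in 16T, KP1 and KP22, per the authors' deposited table.

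Fibril-associated collagens coat the surface of other fibrils. The collagen IX genes Col9a2 and Col9a3, whose products pair in 1 trimer in cartilage, did not move together. Col9a2 (mean 636) rose in KP1 by 2.56 ± 0.15 (adjusted p = 6.83e-67), to 589% of the shControl level, and fell in KP22 by 1.20 ± 0.14 (adjusted p = 1.54e-16), with -0.02 ± 0.16 in 16T, per the authors' deposited table. Col9a3 (mean 625) fell in 16T (-0.62 ± 0.14) and had 0.26 ± 0.16 in KP1 and -0.15 ± 0.15 in KP22, per the authors' deposited table. Further Col9a3 exons merged with the neighboring gene Tcfl5 (mean 114) had -0.71 ± 0.29, -0.06 ± 0.33 and 0.45 ± 0.32 in 16T, KP1 and KP22, per the authors' deposited table. Col20a1 (mean 242), a fibril-associated collagen, rose in every line, by 0.82 ± 0.20 in 16T, 0.65 ± 0.21 in KP1 and 0.63 ± 0.22 in KP22, per the authors' deposited table. Col22a1 (mean 379), which marks tissue junctions such as that of muscle and tendon, fell in KP1 (-1.07 ± 0.23) and in KP22 (-1.10 ± 0.20), with -0.31 ± 0.18 in 16T, per the authors' deposited table. Col14a1 (mean 14.4), found in tendon and skin, fell in KP22 by 1.60 ± 0.52 in the authors' deposited table and had 0.019 ± 0.50 in 16T and -0.016 ± 0.51 in KP1, without an adjusted p there. Col20a1 and Col22a1 each moved the same way under knockdown in KP1 and under Nfib cDNA in KP22.

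Of the remaining collagens, Col26a1, a small collagen with an EMI domain known from the gonads, changed against Nfib in every line, and its fall in KP22 was the largest of any member there. At a mean normalized count of 83.7 it rose by 1.63 ± 0.36 in 16T (adjusted p = 3.90e-05) and by 1.61 ± 0.33 in KP1 (adjusted p = 7.01e-06), and fell by 2.54 ± 0.38 in KP22 (adjusted p = 2.56e-10), per the authors' deposited table. Its level was 309% and 305% of the shControl level in 16T and KP1 with shNfib, and 17.2% of the empty-vector level in KP22 with Nfib cDNA. Col7a1 (mean 767), the anchoring fibril collagen that ties the epidermal basement membrane to the dermis, fell in 16T (-0.73 ± 0.15) and had 0.10 ± 0.14 in KP1 and 0.05 ± 0.15 in KP22, per the authors' deposited table. Col28a1 (mean 58.4), found around peripheral nerve in mice, fell in KP1 (-1.55 ± 0.40) and had -0.69 ± 0.39 in 16T and -0.03 ± 0.51 in KP22, per the authors' deposited table. The 4 transmembrane collagens had means under 10, and none was called in KP22 or had an adjusted p in 16T or KP1.

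Laminin alpha chains fell with shNfib in 4 of 5 cases in 16T and 3 of 5 in KP1, against 25.3% and 19.6% of all genes, while Lamb2 rose in both of these lines. By Student's t with 6 degrees of freedom the falls of Lama4 and Lama5 in 16T and of Lama5 in KP1 were the ones still called. Lama5, the most abundant member, encodes the alpha chain found in most adult epithelial basement membranes, the lung included. At a mean normalized count of 12425 it changed by -0.25 ± 0.038 in 16T (adjusted p = 2.28e-10), -0.81 ± 0.042 in KP1 (adjusted p = 1.97e-81) and 1.06 ± 0.039 in KP22 (adjusted p = 6.77e-160), per the authors' deposited table. Lama5 was thus at 83.9% and 57.1% of the shControl level in 16T and KP1 with shNfib, and at 2.09-fold the empty-vector level in KP22 with Nfib cDNA. A further 218 bases of Lama5 exon that are merged with Mir7005 (mean 233) had -0.03 ± 0.20 in 16T (adjusted p = 0.920), -0.73 ± 0.23 in KP1 and 0.96 ± 0.21 in KP22, per the authors' deposited table. Lama4 (mean 133), the alpha chain of vessel walls, fell in 16T (-1.56 ± 0.25) and in KP1 (-0.89 ± 0.27) and had 0.26 ± 0.34 in KP22, per the authors' deposited table. Lama1 (mean 44.1), typical of the early embryo, fell in 16T (-1.36 ± 0.51) and KP1 (-1.44 ± 0.44) and had 0.02 ± 0.51 in KP22, per the authors' deposited table. Lama2 (mean 20.0), the alpha chain of muscle and Schwann cells, fell in 16T (-1.51 ± 0.50) and had -0.53 ± 0.51 in KP1 and 0.98 ± 0.52 in KP22, per the authors' deposited table. Lama3, the alpha chain of epithelial hemidesmosomes (mean 44.3), was called in no line. With Nfib cDNA in KP22, 1 of the 5 alpha chains, Lama5, rose and 0 fell.

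Lamb2 (mean 452), the beta chain of the glomerulus and the neuromuscular synapse, rose in 16T (0.73 ± 0.15, adjusted p = 7.56e-06) and in KP1 (0.92 ± 0.15, adjusted p = 1.64e-08) and had 0.22 ± 0.20 in KP22, per the authors' deposited table. Lamb1 (mean 31), its counterpart in most other tissues, had 0.58 ± 0.43, 0.98 ± 0.43 and 0.88 ± 0.48 in 16T, KP1 and KP22, with no call, per the authors' deposited table. Lamb3 (mean 50.9), the partner of Lama3, was not called either. Lamc1 (mean 3217), the gamma chain of most laminins, rose slightly in 16T (0.18 ± 0.059, adjusted p = 0.00811), had 0.12 ± 0.059 in KP1 and fell in KP22 (-0.73 ± 0.060, adjusted p = 1.72e-32), per the authors' deposited table. Lamc3 (mean 17.6) fell in 16T (-1.33 ± 0.50) and KP1 (-1.43 ± 0.50) and had 0.67 ± 0.51 in KP22, per the authors' deposited table. In KP22 with Nfib cDNA, Lama5 was therefore higher and Lamc1 lower than with the empty vector, so these abundant alpha and gamma chains had opposite signs. The plot of the basement membrane chains sets these values side by side.

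**Figure D3:**
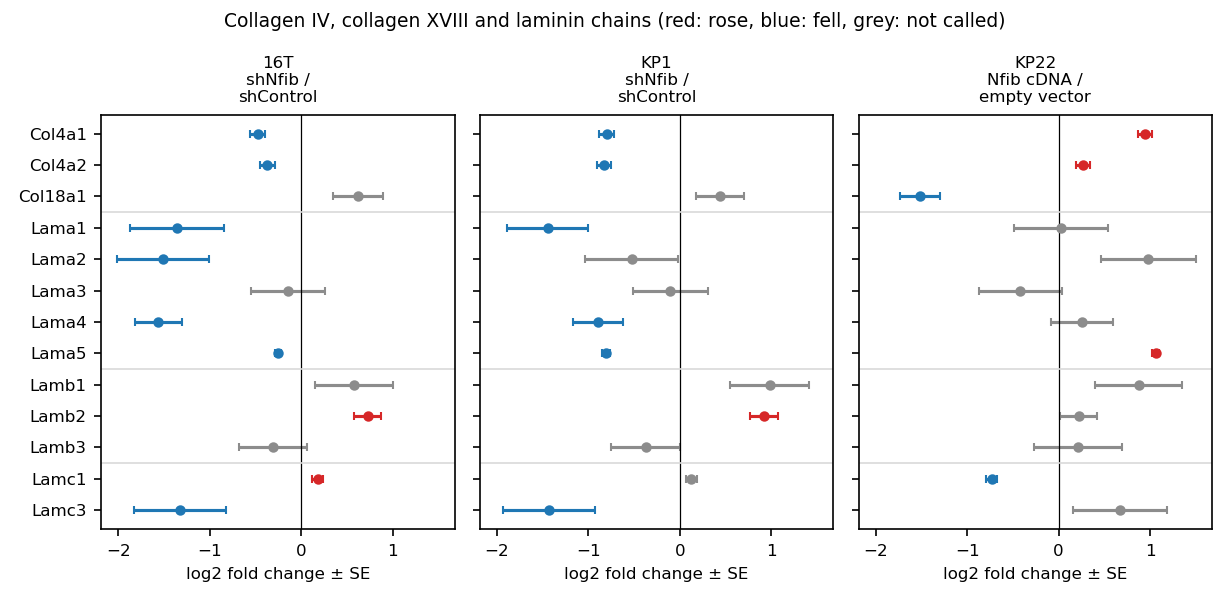
Log2 fold change ± SE of the collagen IV, collagen XVIII and laminin chains in 16T and KP1 (shNfib over shControl) and KP22 (Nfib cDNA over empty vector); red rose, blue fell, grey was not called. The blue alpha chains Lama1, Lama4 and Lama5 lie left of 0 in both knockdown lines, and Lamc1 lies left of 0 in KP22.

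A mean of the 3 effects, each turned towards higher Nfib, was computed from the deposited values for the 42 members with a mean of at least 10. By this measure 11 members were higher with Nfib and 10 lower, against 29.2% and 23.7% of all genes. The ± and the calls combine the SEs within the lines and leave out the spread between lines. They therefore do not measure how far an effect would hold in other lines. For Lama5 the effects before turning were -0.25 in 16T, -0.81 in KP1 and 1.06 in KP22, a spread that its ± does not include. Higher with Nfib were the collagen IV genes Col4a1 (0.74 ± 0.046) and Col4a2 (0.49 ± 0.046), the laminin genes Lama5 (0.71 ± 0.023), Lama4 (0.90 ± 0.17), Lama1 (0.94 ± 0.28), Lama2 (1.01 ± 0.29) and Lamc3 (1.14 ± 0.29), and Col11a1 (1.02 ± 0.17), Col6a6 (1.54 ± 0.27), Col28a1 (0.74 ± 0.25) and Col7a1 (0.23 ± 0.085). Those lower with Nfib included Col26a1 (-1.92 ± 0.21), Col6a1 (-1.86 ± 0.27), Col9a2 (-1.24 ± 0.086), Col5a3 (-1.23 ± 0.27), Col8a1 (-1.02 ± 0.028), Col18a1 (-0.86 ± 0.15), Lamb2 (-0.48 ± 0.098), Lamc1 (-0.34 ± 0.034) and Col20a1 (-0.28 ± 0.12). With each line left out in turn, 7 of the higher and 7 of the lower members kept their call and direction. A member can pass this check without a call in every line. Among those that passed, Col9a2 had -0.02 ± 0.16 in 16T and Lama4 0.26 ± 0.34 in KP22, neither of them called. By Student's t with 6 degrees of freedom 9 were higher and 9 lower, and the calls of Col28a1 (adjusted p = 0.0633), Col7a1 (0.0812) and Col20a1 (0.112) were lost. Without 16T the call was lost for Lama1 (0.73), Lama2 (0.76), Col20a1 (-0.01) and Col7a1 (-0.03, with the sign turned). Without KP1 it was lost for Lama1 (0.69), Col28a1 (0.33), Lamb2 (-0.25) and Col20a1 (-0.09).

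The knockdown effect differed between 16T and KP1 for 12 of 42 members, against 29.4% of all genes. The difference between lines was largest for Col9a2, at -2.58 ± 0.22 for 16T minus KP1 (adjusted p = 9.56e-31), which rose in KP1 and stayed near 0 in 16T. Col6a5 (-2.40 ± 0.62), Col15a1 (-1.90 ± 0.55), Col2a1 (-1.53 ± 0.56), Col9a3 (-0.88 ± 0.21) and Col7a1 (-0.83 ± 0.20) were also lower in 16T than in KP1 relative to their own controls. Values were lower in KP1 than in 16T for 5 members: Lama5 differed by 0.56 ± 0.056 (adjusted p = 3.92e-21), Col4a2 by 0.46 ± 0.11, Col4a1 by 0.32 ± 0.11 and Col22a1 by 0.75 ± 0.29, while Col8a1 rose in both lines and more in 16T (0.34 ± 0.067, adjusted p = 5.97e-06). Nfib itself was at 47.2% of the shControl level in 16T and 40.0% in KP1 in the authors' deposited table; its part in these differences was not tested. By Student's t with 6 degrees of freedom 4 members remained: Col9a2, Col9a3, Lama5 and Col8a1. The scatter plot of the knockdown effect in both lines shows these genes off the diagonal.

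**Figure D4:**
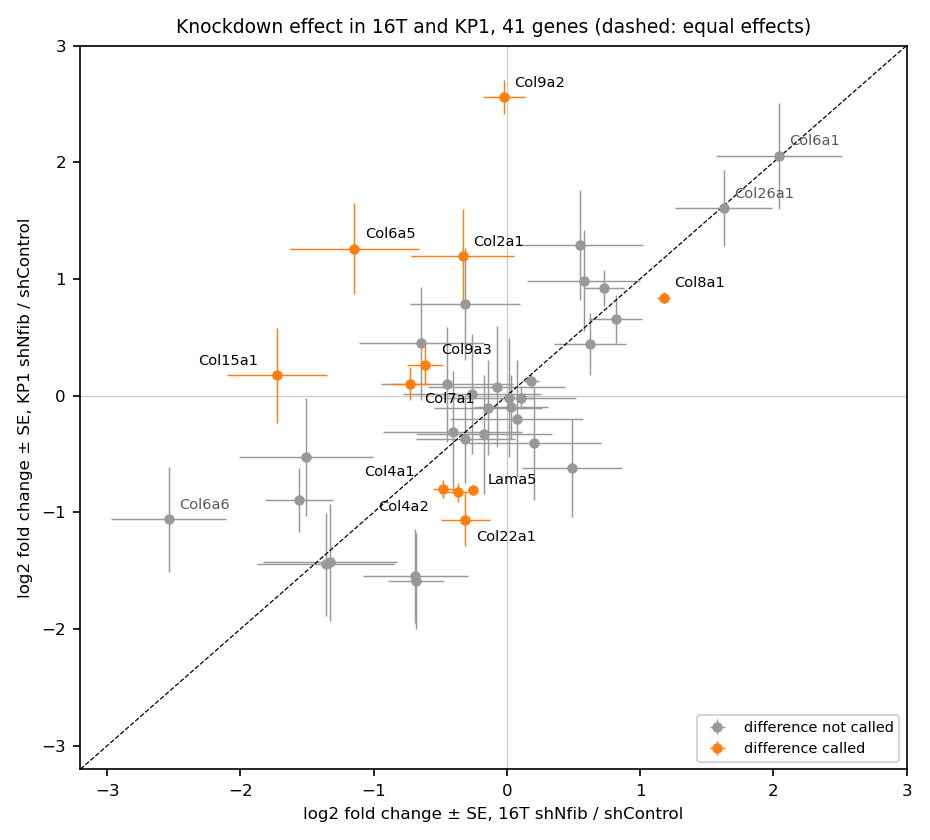
Log2 fold change ± SE (shNfib over shControl) in 16T (x axis) against KP1 (y axis) for 41 members; orange marks genes whose difference between the lines was called and the dashed line equal effects. Col9a2 lies near 0 in 16T and at 2.56 in KP1, while Col6a1 and Col26a1 lie on the diagonal.

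The effect towards higher Nfib differed between the knockdown lines and KP22 for 15 of 42 members, against 36.7% of all genes. For Col4a1, Col4a2, Lama5 and Lama4 the estimates had the same sign and differed in size. Lama5 (-0.53 ± 0.048) and Col4a1 (-0.30 ± 0.095) responded more in KP22, and Col4a2 (0.33 ± 0.097) and Lama4 (0.97 ± 0.38) more in the knockdown lines. Lama4 was not called in KP22 (0.26 ± 0.34), so its sign there is uncertain. Lamc1 (0.58 ± 0.073) and Col18a1 (0.99 ± 0.29) had lower values in KP22 than in the knockdown lines, with estimates of the same sign in both. Col18a1 was called in neither knockdown line, and Lamc1 was not called in KP1. For Col15a1 (1.90 ± 0.51), Col22a1 (1.79 ± 0.25), Col5a1 (1.65 ± 0.62), Col14a1 (1.60 ± 0.63) and Col6a5 (1.44 ± 0.50) the value was higher in the knockdown lines. For Lamb1 (-1.66 ± 0.56), Col20a1 (-1.37 ± 0.26) and Lamb2 (-1.04 ± 0.23) it was higher in KP22. The knockdown lines and KP22 also differ in the way Nfib was changed and in their labelled Nfib background, so line, method and background cannot be told apart in this contrast. By Student's t with 6 degrees of freedom 6 members remained: Col15a1, Col22a1, Lamc1, Lama5, Col20a1 and Lamb2.

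Genes that fold, process and crosslink collagen were described from a list of 32. In 16T with shNfib 13 of 23 tested rose and 2 fell, against 20.0% and 25.3% of all genes, with a median log2 fold change of 0.33, from the authors' deposited table. The largest changes were those of Lox (3.23 ± 0.20), which crosslinks collagen, of the prolyl hydroxylase genes P4ha2 (2.60 ± 0.098) and P4ha1 (2.37 ± 0.051), and of the procollagen protease gene Tll1 (-1.98 ± 0.14), per the authors' deposited table. In KP1 with shNfib 6 of 23 rose and 9 fell (median -0.12), against 17.6% and 19.6% of all genes, led in the authors' deposited table by the hydroxylysine glycosyltransferase gene Colgalt2 (-1.56 ± 0.41), Tll1 (-1.35 ± 0.14), the prolyl isomerase gene Fkbp10 (1.34 ± 0.28) and the lysyl hydroxylase gene Plod2 (-0.93 ± 0.15). In KP22 with Nfib cDNA 4 of 29 rose and 14 fell (median -0.38), against 19.5% and 18.8% of all genes, led by Tll1 (4.17 ± 0.23), the prolyl hydroxylase gene Leprel1 (2.02 ± 0.29), the prolyl isomerase gene Fkbp14 (-1.99 ± 0.18) and Colgalt2 (-1.59 ± 0.48), per the authors' deposited table. Tll1 thus fell in both knockdown lines and rose with Nfib cDNA, and Colgalt2 fell under knockdown in KP1 and under Nfib cDNA in KP22.

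Partners of the basement membrane were described from a list of 20. In 16T 6 of 18 rose and 4 fell (median -0.21), against 20.0% and 25.3% of all genes, led in the authors' deposited table by Npnt (1.47 ± 0.13), an integrin ligand, Nid1 (1.34 ± 0.11), which bridges laminin and collagen IV, the adhesion protein gene Tgfbi (1.25 ± 0.51) and Papln (-1.25 ± 0.24). In KP1 4 of 18 rose and 6 fell (median -0.24), against 17.6% and 19.6%, led in the authors' deposited table by Hmcn1 (-2.46 ± 0.37), which encodes a hemicentin, Smoc2 (2.21 ± 0.14), a calcium-binding matrix protein gene, Tgfbi (2.07 ± 0.50) and Npnt (-1.79 ± 0.12). In KP22 4 of 20 rose and 8 fell (median -0.34), against 19.5% and 18.8%, led in the authors' deposited table by Frem1 (-5.42 ± 0.27), which anchors epithelium to mesenchyme, the dystroglycan ligand gene Egflam (-1.94 ± 0.44, at a mean of 5.05), Smoc1 (-1.50 ± 0.17) and Npnt (-1.39 ± 0.13). Npnt therefore rose in 16T and fell in KP1 under the same hairpin.

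Receptors for collagen and laminin were described from a list of 16. The laminin receptor subunit gene Itga6 fell in both knockdown lines, by 1.11 ± 0.069 in 16T and by 1.04 ± 0.063 in KP1, per the authors' deposited table. With Nfib cDNA in KP22 Itga6 was not called (0.07 ± 0.063). In 16T 5 of 12 rose and 2 fell (median 0.06), against 20.0% and 25.3% of all genes, with the collagen receptor gene Itga2 (1.43 ± 0.48), the discoidin domain receptor gene Ddr2 (-0.61 ± 0.12) and the Lama5 receptor gene Bcam (0.49 ± 0.084) beside Itga6, per the authors' deposited table. In KP1 5 of 12 rose and 3 fell (median 0.05), against 17.6% and 19.6%, with the hemidesmosome integrin gene Itgb4 (0.76 ± 0.20), Mcam (0.49 ± 0.11) and Ddr2 (-0.35 ± 0.12), per the authors' deposited table. In KP22 4 of 15 rose and 3 fell (median 0.24), against 19.5% and 18.8%, with Mcam (3.74 ± 0.13), a receptor for the Lama4 chain, Ddr2 (2.35 ± 0.15), the collagen receptor gene Itga1 (2.08 ± 0.49) and Itgb4 (-1.80 ± 0.28), per the authors' deposited table. Ddr2, a receptor for fibrillar collagen, was lower with shNfib in both lines and higher with Nfib cDNA.

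Some markers of other cell types that make matrix were also called. The 8 fibroblast markers summed to a mean normalized count of 2749, of which Pdgfra held 2220, Dcn 284, Thy1 162 and Pdgfrb 73.2, per the authors' deposited table. Of 4 fibroblast markers tested in 16T 3 rose and 0 fell, against 20.0% and 25.3% of all genes: Pdgfrb (2.01 ± 0.38), Dcn (0.61 ± 0.21) and Pdgfra (0.24 ± 0.077), per the authors' deposited table. In KP1 0 rose and 1 fell of 4, against 17.6% and 19.6%. Pdgfra fell there (-0.47 ± 0.069), and Pdgfrb was not called (0.72 ± 0.34), per the authors' deposited table. In KP22 0 rose and 2 fell of 7, against 19.5% and 18.8%. Pdgfrb (-1.21 ± 0.38) and Thy1 (-0.80 ± 0.25) fell there, and Pdgfra was not called (-0.22 ± 0.25), per the authors' deposited table. The other markers on that list, Acta2 (0), Lum (1.01), Postn (3.56) and Fap (5.53), had mean normalized counts under 10, per the authors' deposited table, as did the fibroblast collagen Col3a1. Vwf, the most abundant endothelial marker at a mean of 2353, rose in KP1 (1.34 ± 0.16), fell in KP22 (-0.75 ± 0.075) and had 0.15 ± 0.097 in 16T, per the authors' deposited table. Kdr, another endothelial marker at a mean of 495, fell in every line, at -1.48 ± 0.18 in 16T, -1.62 ± 0.21 in KP1 and -1.76 ± 0.16 in KP22, while Emcn is listed at 0, per the authors' deposited table. Of 4 endothelial markers tested in 16T 0 rose and 1 fell, of 4 in KP1 1 rose and 1 fell, and of 5 in KP22 0 rose and 2 fell, to be read against the same shares of all genes. The leukocyte marker tested in the knockdown lines, Cd68, was not called in any line. The part of such cells in the changes of Col6a1, Col8a1 and Lama4, which fibroblasts or vessels can make, was not tested.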

How the data were processed

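RNA-seq covered 6 groups of 2 samples from 3 mouse lines. The submitters' processing notes name TopHat, bedtools, DESeq, DESeq2 and the build mm10; versions and settings were not given in the sources used here. Per the file headers, the deposited table holds for each of 28112 features a normalized count averaged over all libraries (a signal), and for each comparison a log2 fold change with its SE, both on the log2 scale, its raw and adjusted p-value, and an adjusted p-value for the authors' test of a log2 fold change beyond 0.5 in size. It holds no value per sample, so the count test (edgeR) foreseen for counts per sample was not possible, and depth is unknown. Of its features, 23226 with 1 gene name were used and 4886 with joined names were not, except where stated. The precision of each value is the authors' SE, and calls within a line use the authors' deposited adjusted p-values below 0.05 unless another setting is named. Calls of the derived contrasts use adjusted p-values below 0.05 that were computed here.

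In 15008 genes whose mean was 10 or more, 3 contrasts were derived from the deposited effects and SEs: 16T minus KP1, the knockdown lines minus KP22, and an average of the 3 lines' effects in the direction of higher Nfib. Squared SEs were summed, since the lines share no samples, and p-values from the normal distribution were adjusted by Benjamini-Hochberg over all 15008 genes, in Python 3.11.15 with pandas 2.3.3, numpy 2.4.6 and scipy 1.17.1. The deposited effects, which look shrunken towards 0, and their SEs were taken as given, so these contrasts are approximate as well. The calculation was tested on simulated effects, drawn from normal distributions with the deposited SEs and independent between lines. These meet the test's own assumptions, so whether the assumptions hold for the real data was not tested. Level per kb is the mean normalized count divided by the summed length of the gene's own exon intervals, from the authors' deposited interval list. The members and gene lists were chosen with earlier results of these data known. Every member with a mean of at least 10 and a call in at least 1 line is named with its values in all 3 lines, except 1 that is in the counts but not reported here, and of each gene list the up to 4 largest called changes in each line. Col6a4, under that mean, was named after its values were seen, as were the marker genes given with values. Promoters come from RefSeq (GRCm38.p6), where 40 of 55 members matched, in 44 windows. All 55 members overlap their GENCODE M21 gene. The alternatives tried were other minimum means, the test against 0.5, Student's t with 6 degrees of freedom, recentring on the median gene, the joined features of a gene and, chosen after seeing the data, leaving out a line from the mean of the 3 effects.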

Additional observations from a re-analysis of the deposited data

Results flagged for a closer look

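The knockdown effect of 12 members differed between 16T and KP1 by a test of the difference itself, given here as 16T minus KP1 on the log2 scale. Among them, the effect was lower in 16T for Col9a2 (-2.58, adjusted p = 9.56e-31), Col6a5 (-2.40, adjusted p = 0.000781), Col15a1 (-1.90, adjusted p = 0.00329), Col2a1 (-1.53, adjusted p = 0.0237), Col9a3 (-0.88, adjusted p = 0.000256) and Col7a1 (-0.83, adjusted p = 0.000373). It was higher in 16T for Col22a1 (0.75, adjusted p = 0.0357), Lama5 (0.56, adjusted p = 3.92e-21), Col4a2 (0.46, adjusted p = 0.000481), Col8a1 (0.34, adjusted p = 5.97e-06) and Col4a1 (0.32, adjusted p = 0.0186).

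The effect towards higher Nfib of 15 members differed between the knockdown lines and KP22, also by a test of the difference, given as knockdown minus KP22. Among them, it was higher in the knockdown lines for Col15a1 (1.90, adjusted p = 0.000964), Col22a1 (1.79, adjusted p = 6.66e-12), Col5a1 (1.65, adjusted p = 0.0249), Col14a1 (1.60, adjusted p = 0.0323), Col6a5 (1.44, adjusted p = 0.0144), Col18a1 (0.99, adjusted p = 0.00274), Lama4 (0.97, adjusted p = 0.0339), Lamc1 (0.58, adjusted p = 3.90e-14) and Col4a2 (0.33, adjusted p = 0.00257). It was lower in the knockdown lines for Lamb1 (-1.66, adjusted p = 0.0114), Col20a1 (-1.37, adjusted p = 1.04e-06), Lamb2 (-1.04, adjusted p = 2.97e-05), Lama5 (-0.53, adjusted p = 1.09e-26) and Col4a1 (-0.30, adjusted p = 0.00568). The adjusted p-values are Benjamini-Hochberg values over 15008 genes from errors added as independent.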

How the results depend on the processing

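No paired analysis was possible because the table holds results only, with no values per sample, and leaving out replicates was not run for the same reason. Neither normalization nor depth could be varied. Counts of called members changed by more than 1.5 times as follows. Against an absolute change of 0.5, 3 members were higher and 3 lower in 16T (6 and 13 in the test against 0), 4 and 3 in KP1 (10 and 9), and 2 and 9 in KP22 (5 and 14). By Student's t with 6 degrees of freedom, 8 were lower in 16T, 6 higher in KP1 and 3 higher in KP22. That setting left 2 higher and 2 lower in 16T than in KP1 (5 and 7 with the normal reference), and 3 higher and 3 lower in the knockdown lines than in KP22 (10 and 5). Among the 16 members with a mean of at least 100, 7 were lower in 16T, 5 higher in KP1, 6 lower in KP22, 4 lower in 16T than in KP1, 6 higher in the knockdown lines than in KP22, and 6 higher by the mean of the 3 effects (11 of 42). These have fewer members tested by construction. The sign of 2 values turned round when a line was left out of the mean of the 3 effects: Col7a1 had -0.027 without 16T (not called), and Col22a1 had -0.39 without KP1 (called, whereas it was not with all 3 lines). The cause was not tested. A minimum mean of 10 or 100 gained the call of Col18a1 in 16T. Recentring on the median gene moved effects by at most 0.05, gained 3 calls (Col18a1 in 16T, Lamc1 in KP1 and the mean effect of Col6a5) and lost 2 (Col6a5 in 16T and the mean effect of Col7a1) of 166 single-gene results.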
